A study of Mus musculus with 8 samples.

Results

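Chromatin accessibility was examined gene by gene in LSK cells, the Lin- Sca1+ cKit+ fraction of the bone marrow that holds hematopoietic stem cells and the earliest progenitors. The study's flow cytometry gate for LSK cells also requires the absence of IL7R, the product of Il7r. The 4 LSK ATAC-seq libraries of the series (of 8 libraries in all) comprised 2 WT and 2 Dido1∆E16 libraries. To set libraries of unlike peak number side by side, the 13208 best peaks of each library were kept by the MACS2 score, 13208 being the length of the shortest list, and peaks with a tied score were taken in list order. Of 114628 MACS2 peaks, 52832 were kept, and the kept peaks carried 12884 of the 17769 gene symbols found in the complete lists. Peaks were then counted, and their widths summed, for each symbol. The authors had assigned each peak to the gene with the nearest start site, so that a count includes intergenic peaks that can lie far from the gene.

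The Dido1∆E16 mice carried the genotype Dido1 flE16/∆E16;R26R-EYFP;iCre Vav1. Littermates of the genotype Dido1 flE16/+;R26R-EYFP;iCre Vav1 served as WT. Both genotypes therefore shared the Vav1-driven Cre recombinase, which acts in blood cells, the EYFP reporter and 1 floxed allele, and the WT cells kept 1 allele that could not be cut. Mice were on the C57BL/6 background, and cells were sorted by the LSK gate. Mice in general were 6 to 10 weeks old and matched for sex and age by the methods, whereas a figure legend describes the mice behind the accessibility tracks as males of different ages. The labels give 2 libraries per genotype and do not say whether these came from separate mice. The study's text calls them 2 biological replicates in one place and speaks of 3 samples per genotype in others, and p-values here measure only the spread between libraries, which may be technical.

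ATAC-seq uses the Tn5 transposase to cut and tag DNA that is not packed away in nucleosomes, so that open promoters and enhancers gather tags and are called as peaks. Promoters, above all those rich in CpG dinucleotides, are open in most cell types, whereas the enhancers in introns and between genes differ between cell types and are bound by lineage factors such as the ETS and Runx families. In LSK cells these elements prepare genes for lymphoid or myeloid fates before the genes are fully expressed. Dido1 encodes proteins that share a PHD finger able to bind histone H3 trimethylated at lysine 4, a mark of active promoters, and exon 16 encodes the C terminus found only in the longest protein, Dido3. Where DNA is present in many near-identical copies, such as transposons and gene arrays, a short read fits several places, and the aligner's choice of place decides where a peak is called. The methods name Bowtie2 and BWA-MEM, both with standard settings, and which of them placed the reads of each library is not given in the sources used here.

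The sequences shown first carry the main patterns. Positions are on GRCm38/mm10, and bases were read from the RefSeq assembly GRCm38.p6. The first pair shows promoters that were kept in 1 genotype only, with CpG dinucleotides in capitals. The Il7r stretch lies at chr15:9529942-9530045 on the minus strand, directly before the annotated start of Il7r, and was overlapped by a kept peak in both WT libraries and in neither Dido1∆E16 library. The Rela stretch at chr19:5637277-5637441 on the plus strand, directly before the start of Rela, had the opposite pattern.
Il7r promoter: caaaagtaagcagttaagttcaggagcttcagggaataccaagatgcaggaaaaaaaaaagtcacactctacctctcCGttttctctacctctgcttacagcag
Rela promoter: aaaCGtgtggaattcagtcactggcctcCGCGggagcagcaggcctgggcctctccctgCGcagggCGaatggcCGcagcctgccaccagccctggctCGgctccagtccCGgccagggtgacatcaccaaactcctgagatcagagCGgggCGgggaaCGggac
The Il7r stretch of 104 bases held 1 CpG, at a GC content of 42.3%, and the Rela stretch of 165 bases held 11, at a GC content of 67.9%. The observed to expected CpG ratio was 0.22 and 0.58.

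Next come the middle 200 bases of an intronic peak that was kept in both WT libraries and in neither Dido1∆E16 library. It lies in Capsl, the neighbour of Il7r, at chr15:9455338-9455537 and was read on the plus strand. Capitals mark every match on either strand to GGAAG, the core of ETS factor sites, and to TGTGGT, the site of Runx factors, which share no base here.
Capsl intron: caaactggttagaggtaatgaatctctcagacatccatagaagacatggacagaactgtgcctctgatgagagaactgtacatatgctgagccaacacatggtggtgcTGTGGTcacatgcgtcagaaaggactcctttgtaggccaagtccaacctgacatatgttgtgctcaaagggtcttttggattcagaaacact
The Capsl window held 1 match. Among all kept peaks outside promoters, the central 200 bases held GGAAG in 67.2% and 65.5% of the WT windows and in 56.9% and 63.1% of the Dido1∆E16 windows. TGTGGT was found in 27.1% and 26.4% of the WT windows and in 18.9% and 25.3% of the Dido1∆E16 windows. A match is a description of the letters and shows no binding.

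The last sequences are repeated in the genome and lay under many peaks that were kept in Dido1∆E16 libraries. The first is a stretch of 60 bases that was the same in Dido1∆E16 replicate 2 peaks assigned to Phf3 (chr1:30159971-30160030, minus strand), Brinp3 (chr1:147728531-147728590, plus strand), Cntnap5a (chr1:115553203-115553262, plus strand) and Gm20268 (chr1:102086511-102086570, minus strand). Capitals mark a core of 20 bases, chosen after its frequency was seen. The other is a stretch of 121 bases upstream of Ezh2 that stands in 8 identical copies, here with the first at chr6:47655027-47655147 on the plus strand and the 31 bases used to count copies in capitals.
Shared 60-base stretch: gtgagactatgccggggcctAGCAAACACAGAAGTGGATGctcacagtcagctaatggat
Array copy upstream of Ezh2: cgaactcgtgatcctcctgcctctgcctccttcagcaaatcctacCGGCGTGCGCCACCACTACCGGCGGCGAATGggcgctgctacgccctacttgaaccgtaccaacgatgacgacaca

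The libraries differed before any gene was compared. All values listed by library keep the order WT replicate 1, WT replicate 2, Dido1∆E16 replicate 1, Dido1∆E16 replicate 2. MACS2 peaks numbered 27352, 57739, 13208 and 16329 before ranking, so that 48.3%, 22.9%, 100% and 80.9% of them were kept. The weakest kept peak scored 35, 88, 10 and 18, and a peak of a given score could therefore be kept in a Dido1∆E16 library and left out of a WT library. Total tags were 10249256, 52050898, 22533077 and 44633938. Within each genotype the library with more tags had more peaks, but across genotypes the tags did not follow the peak numbers.

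With the 13208 best peaks of each library, the Dido1∆E16 libraries had more genes with a peak, a higher promoter share and narrower peaks. Genes with a peak numbered 9213, 9166, 9649 and 9352, a mean of 9190 ± 33.2 in WT and 9501 ± 210 in Dido1∆E16 (SD, n = 2 libraries each). This separation was lost among the kept peaks whose central 31 bases occur once in the genome, the single-copy peaks (8901, 8836, 9132 and 8705 genes). These were not ranked anew, and they were fewer in both Dido1∆E16 libraries than in either WT library. It was also lost with the best 50% of the peaks (5540, 5585, 5790 and 5552). Genes with at least 2 peaks numbered 2493, 2480, 2276 and 2279. Promoter peaks made up 48.9%, 50.1%, 58.8% and 52.6% of the kept peaks, and the 2 genotypes did not overlap. In such bulk samples, fewer cells of a type and less open chromatin per cell cannot be told apart. The summed width was 6.97, 10.2, 6.08 and 6.38 Mb, and the median peak was 492, 730, 411 and 429 bp wide. Each of these totals separated the genotypes with an exact two-sided permutation p of 0.333, the smallest that 2 against 2 libraries allow. Genes with 5 or more peaks did not separate them (153, 154, 126 and 156, exact permutation p = 1).

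Peak counts over the 12884 genes correlated between the WT libraries at a Spearman rho of 0.580 and between the Dido1∆E16 libraries at 0.433. Across genotypes rho was between 0.345 and 0.462. By rho Dido1∆E16 replicate 2 was nearer to the WT libraries (0.462 and 0.451) than to Dido1∆E16 replicate 1, whereas by genes with a peak in both libraries it was nearer to Dido1∆E16 replicate 1 (68.7% of the genes with a peak in either, against 67.3% and 66.1%). These correlations run across genes, which are not independent replicates. They also share the ranking that chose the peaks.

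A gene was counted as lower when each Dido1∆E16 library held fewer of its peaks than either WT library, and as higher in the opposite case. By this rule 922 genes were lower (7.16% of 12884) and 847 were higher (6.57%). The mean difference over all genes was about 0 by construction, because every library contributed the same number of peaks. Most differences were small: 472 lower and 540 higher genes differed by at most 1 peak in the mean, while 209 and 159 differed by at least 2 and 49 and 68 by at least 3. Summed width gave 4284 lower genes (33.3%) and 873 higher ones (6.78%). Once each width was taken as a share of its library's summed width, the split was 2303 lower (17.9%) against 1991 higher (15.5%), so that the excess of lower over higher widths was much smaller on that scale.

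The 2 groups differed in what became of them in the complete peak lists. Of the 922 lower genes, 878 were also lower with all MACS2 peaks, beside 4771 of all 12884 genes, and 518 with all peaks of HOMER, a second peak caller, beside 2847 of all genes. Of the 847 higher genes, 31 were higher and 148 were lower with all MACS2 peaks, beside 34 and 4771 of all 12884 genes. With HOMER 6 were higher and 98 lower, beside 31 and 2847 of all genes. Among higher genes, 589 had no kept peak in either WT library, yet 430 of these had a MACS2 peak in both complete WT lists and 20 had none in either. Among lower genes, 447 had no kept peak in either Dido1∆E16 library. Of these, 361 had none in the complete MACS2 lists of Dido1∆E16, of which that of replicate 1 was kept whole, and 124 had none in the HOMER lists. The complete lists are longer in WT, so that a gene is more easily lower than higher there. For most higher genes the call thus describes which peaks stood among the best of a library, not how many peaks the gene had in all.

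In the genotype with more of them, the peaks of both groups stood low in their own lists. The WT peaks of lower genes had a median rank of 61.2% and 61.6% of the way down the kept list, and 32.4% and 33.1% of them stood in the last 25% of the list. The Dido1∆E16 peaks of higher genes had a median rank of 68.2% and 67.5%, with 41.5% and 39.0% in the last 25%. In the other genotype the median rank was 46.4% and 39.8% for the Dido1∆E16 peaks of lower genes. For the WT peaks of higher genes it was 42.4% and 45.5%.

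The lower genes were led by long genes with many intronic and intergenic peaks. The plot of kept peaks by gene shows the 8 genes with the largest differences in each direction. Pde4d (chr13:108654177-109955969), a cAMP phosphodiesterase, held 10, 13, 0 and 8 kept peaks, none of them multi-copy. Its 2 Dido1∆E16 libraries differed by 8 peaks, so that the genotypes were separated by only 2 peaks between WT replicate 1 and Dido1∆E16 replicate 2. Ank2, which encodes an ankyrin that anchors membrane proteins to the cytoskeleton, held 6, 8, 1 and 2. Chl1, a neural cell adhesion molecule, held 5, 8, 1 and 2, and Thrb, a thyroid hormone receptor, held 6, 6, 1 and 2. In these 3 genes every Dido1∆E16 library lay at least 3 peaks below every WT library.

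**Figure D1:**
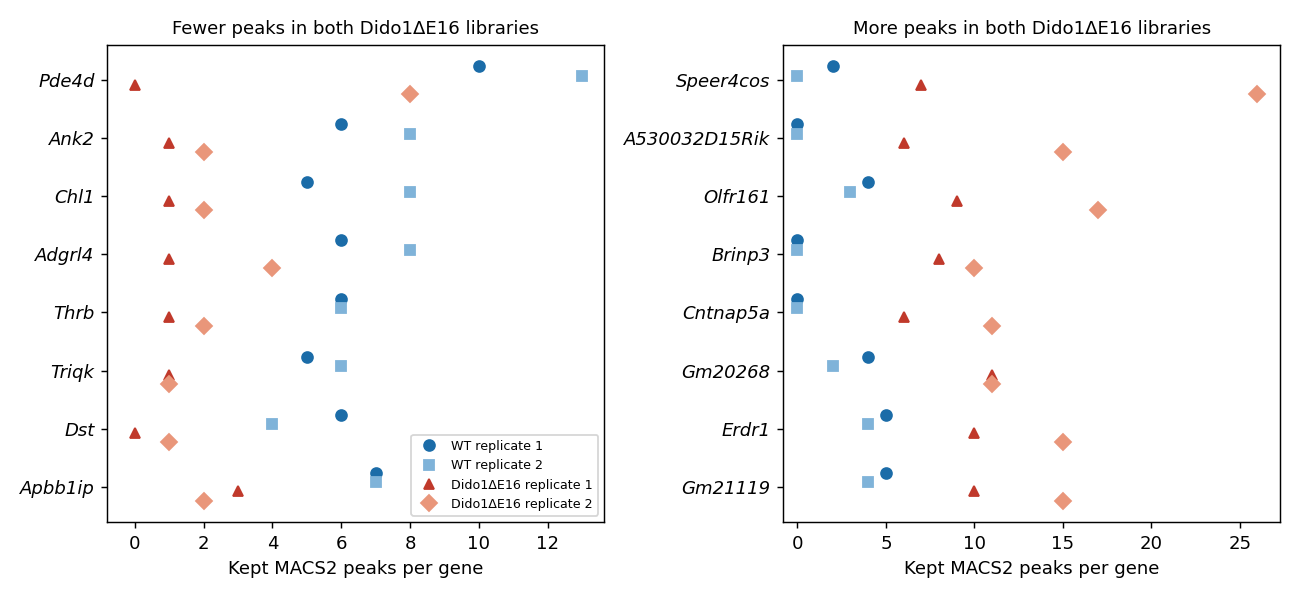
Kept MACS2 peaks per gene (x axis, peaks) for the 8 genes with the largest difference in each direction; each symbol is 1 library. On the left, Dido1∆E16 libraries (triangles, diamonds) lie below WT libraries (circles, squares), as for Ank2 with 6 and 8 against 1 and 2; on the right they lie above, with Speer4cos at 7 and 26 against 2 and 0.

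Triqk, a small membrane protein gene, held 5, 6, 1 and 1 peaks, of which 1 per library was at the promoter. Dst (chr1:33907888-34308662), which encodes the cytoskeletal linker dystonin, held 6, 4, 0 and 1, and its promoter peak was kept in the WT libraries only (1, 1, 0 and 0). Adgrl4, an adhesion receptor of endothelial cells, held 6, 8, 1 and 4, with Dido1∆E16 replicate 2 closer to WT. Apbb1ip, an adaptor that links Ras-family GTPases to integrins in leukocytes, held 7, 7, 3 and 2, with 1 promoter peak in every library. All 8 of these genes also had fewer peaks in both Dido1∆E16 libraries with all MACS2 peaks. With HOMER the genotypes overlapped at Pde4d (17, 57, 3 and 21) and touched at Apbb1ip (8, 12, 4 and 8).

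Long genes were lower more often than short ones. The median annotated span was 44.5 kb for lower genes, 27.6 kb for higher genes and 25.1 kb for all genes with a span, and 31.2% of the lower genes spanned at least 100 kb against 15.3% of all. The share of lower genes was 5.07% under 10 kb (3114 genes), 6.77% from 30 to 100 kb, 12.6% from 100 to 300 kb (1452 genes), and from 300 kb upwards 99 of 472 genes were lower. The share of higher genes stayed between 5.72% and 6.79% up to 300 kb and was 11.4% above that. Genes of at least 300 kb held a mean of 1.91, 1.96, 1.31 and 1.85 peaks, so Dido1∆E16 replicate 1 was far below WT and replicate 2 was close to it. A gene with more peaks can differ by this rule more easily than a gene with 1 peak, and the part of that in the share was not tested.

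**Figure D2:**
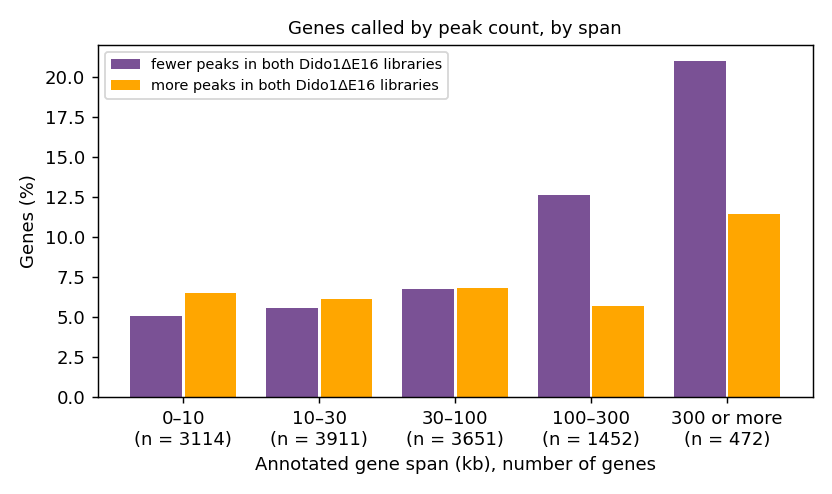
Percentage of genes (y axis) with fewer (purple) or more (orange) kept peaks in both Dido1∆E16 libraries, by annotated gene span in kb (x axis, with the number of genes). The share with fewer peaks is 5.07% under 10 kb and highest from 300 kb (99 of 472 genes), while the share with more peaks is 6.49% and 11.4%.

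The difference in lower genes lay mostly outside promoters. Counting promoter peaks alone, 167 of 9153 genes were lower (1.82%) and 441 were higher (4.82%). Counting other peaks alone, 846 of 7118 genes were lower (11.9%) and 459 higher (6.45%). Of the 922 lower genes, 134 were lower at promoters and 760 outside them, and of the 847 higher genes, 365 were higher at promoters and 415 outside them. Promoter peaks made up 22.6% and 22.9% of the WT peaks of lower genes, below the 48.9% and 50.1% of those libraries as a whole.

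Il7r, a gene of the lymphoid programme, and its neighbour Capsl both had fewer kept peaks in the Dido1∆E16 libraries. Il7r (chr15:9506159-9529941), the receptor subunit for interleukin 7 on which early B and T cell precursors depend, held 1 promoter peak in each WT library and none in either Dido1∆E16 library, the stretch printed above. In the deposited log2 tag counts of the authors' differential regions, which were selected on these libraries and are given as a description, the Il7r promoter region had 5.18, 5.11, 3.87 and 4.20. Capsl (chr15:9436016-9466039), which encodes a calcium-binding protein and lies beside Il7r, held 3, 3, 0 and 0 kept peaks and 5, 7, 0 and 0 in the complete MACS2 lists. HOMER called 5, 8, 1 and 0 peaks there. In the same lists 240 regions lay at kept peaks of 55 of the genes named here, and all 240 had fewer tags in both Dido1∆E16 libraries, as had 13746 of all 13771 deposited regions. They included genes called higher by kept peaks, such as Cxcr4 (7.96, 7.76, 6.93 and 6.83 for an intergenic region), Gm20268 (8.45, 8.04, 6.85 and 6.53) and Dnmt3a (7.80, 7.88, 6.79 and 6.88 for an intronic region). The tag counts therefore do not set lower genes apart from higher ones. At Capsl both callers left the Dido1∆E16 libraries with at most 1 peak.

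Among the genes of the T lineage and the Notch pathway, which steers progenitors towards T cells, 2 of 14 genes with a peak were lower and 1 was higher, beside 7.16% and 6.57% of all genes. Tox (chr4:6686353-6991557), a nuclear factor needed for CD4 T cell development and for innate lymphoid cells, held 2, 2, 0 and 0 peaks, and the tag counts of an intronic region there were 6.50, 6.31, 4.88 and 5.28 (log2). Lef1, a T cell transcription factor of the Wnt pathway, held 3, 4, 2 and 1. Maml3, a coactivator of Notch, was higher with 2, 3, 5 and 5, while the tag counts of an intronic region were 6.31, 6.27, 5.63 and 5.44. Summed over the list the peaks numbered 26, 26, 28 and 23, and the genotypes overlapped.

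The higher genes were led by loci of repeated DNA. A kept peak was taken as multi-copy when its central 31 bases occurred more than once in the genome, which held for 4.94%, 4.87%, 9.44% and 13.6% of the kept peaks. Among promoter peaks the genotypes overlapped (2.85%, 3.43%, 2.65% and 3.05%), and among the other peaks they were apart (6.94%, 6.31%, 19.2% and 25.3%). Peaks with at least 1000 copies of their centre numbered 59, 43, 500 and 786. Both Dido1∆E16 libraries thus lay above both WT libraries, and replicate 2 above replicate 1.

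Among the other peaks of higher genes, 45.9% and 55.8% were multi-copy in the Dido1∆E16 libraries, against 11.5% and 8.18% among those of lower genes. In the WT libraries the shares were 28.5% and 27.3% against 4.58% and 4.67%, so the share was larger for higher genes in both genotypes. Over all kept peaks of the Dido1∆E16 libraries the median score was 31 and 29 for multi-copy peaks against 42 and 35 for single-copy peaks, whereas in WT it was 63 and 137 against 55 and 129. Among the other peaks of higher genes it was 25 against 30.5 and 27 against 28 in the Dido1∆E16 libraries, a smaller gap. As the last kept score was lower in the Dido1∆E16 libraries, the part of the score limit in this difference was not tested. Counting only the single-copy peaks among the kept peaks was an alternative chosen after seeing the data. It dropped 651, 642, 1245 and 1791 multi-copy peaks without replacement, so that a gene was more easily lower than higher. By this count 959 genes were lower, including 865 of the 922. Another 608 were higher, including 585 of the 847, while 6 of the 847 turned lower.

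Brinp3 (chr1:146495629-146902472), a neural gene, held 0, 0, 8 and 10 kept peaks, and 16 of the 18 Dido1∆E16 peaks were multi-copy, with a median of 9566 copies over all of them. In the complete MACS2 lists it had 4, 18, 8 and 15 peaks, with no separation of the genotypes. Cntnap5a, a neural adhesion gene of the neurexin family, held 0, 0, 6 and 11, all of them multi-copy with a median of 14285 copies. Gm20268, a predicted gene, held 4, 2, 11 and 11 with a median of 4106 copies. The printed stretch of 60 bases lay in a peak of each of these genes, and its position on chromosome 1 was far outside the gene in each case, so these peaks were assigned to the gene by distance only.

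In the other leading higher genes many peaks were multi-copy, so that the counts are uncertain. Speer4cos, of the Speer family, held 2, 0, 7 and 26, so that Dido1∆E16 replicate 2 alone accounted for most of the difference. A530032D15Rik, in a cluster of related genes on chromosome 1, held 0, 0, 6 and 15. Olfr161, an olfactory receptor gene, held 4, 3, 9 and 17, of which 0, 1, 2 and 9 were single-copy. Erdr1 and Gm21119 each held 5, 4, 10 and 15, the former from the pseudoautosomal region shared by the sex chromosomes. In all 5 genes Dido1∆E16 replicate 2 had the most kept peaks. Over all libraries together the gene with the most peaks was Mir101c, a microRNA gene beside repeats, with 20, 16, 21 and 22 and a median of 15 copies. In Dido1∆E16 replicate 2 alone Speer4cos held more.

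The core of 20 bases was the most frequent run of that length, simple repeats aside, in the 568 peaks outside promoters with at least 1000 copies that the Dido1∆E16 libraries held at higher genes, and it was found in 202 of them. Among the kept peaks with at least 1000 copies, the only kept peaks searched, it was found in 0, 0, 116 and 265. On chromosome 1 it lay in 56 and 146 of these Dido1∆E16 peaks, and on chromosome 10 in 33 and 65. It lay in 16 and 29 on chromosome 11, in 10 and 22 on chromosome 12 and in 1 and 2 on chromosome 13. A single further peak among them, on chromosome 5, held it. These 5 chromosomes, 1 and 10 to 13, are the first 5 when the names are sorted as text. In the complete MACS2 lists the core was found in 14, 344, 120 and 380 peaks, of which 12, 325, 119 and 378 were on the same 5 chromosomes, and HOMER called 0, 5, 0 and 0 peaks with it. As a share of the complete lists these were 0.0512%, 0.596%, 0.909% and 2.33% of the peaks. In WT replicate 2 none of the 43 kept peaks with at least 1000 copies held the core, and its other kept peaks were not searched separately.

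Higher genes were spread unevenly over the chromosomes, in an order that differed from that of the core. On chromosome 1, 11.4% of 884 genes were higher, and on chromosome 11, with far fewer core peaks, 109 of 839 genes. The share was 5.41% on chromosome 13 and 8.09% on chromosome 19, where none of the kept peaks searched held the core. Chromosome 1 held 7.02%, 6.97%, 8.03% and 9.60% of the kept peaks, but 7.05%, 7.09%, 6.72% and 7.07% of those that were single-copy, so that its excess was in multi-copy peaks. Chromosome 11 held 4.87%, 4.41%, 6.19% and 6.11% of the kept peaks and 4.96%, 4.49%, 6.09% and 6.18% of the single-copy ones, so that its excess was there without multi-copy peaks. The plot of multi-copy peaks by chromosome places chromosomes 1, 10 and 12 above the others in both Dido1∆E16 libraries. On chromosome 1 the multi-copy share was 4.42%, 3.26%, 24.2% and 36.4%, and on chromosome 10 it was 4.36%, 4.51%, 18.9% and 25.2%.

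**Figure D3:**
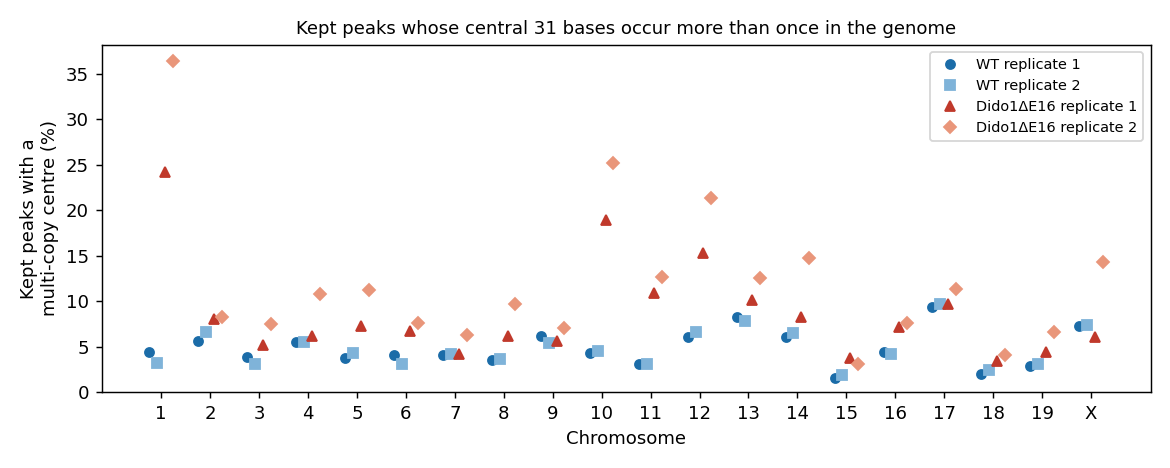
Percentage of kept peaks whose central 31 bases occur more than once in the genome (y axis), by chromosome (x axis); each symbol is 1 library. On chromosome 1 the Dido1∆E16 libraries (triangle, diamond) stand at 24.2% and 36.4% and the WT libraries (circle, square) at 4.42% and 3.26%, and chromosomes 10 and 12 show the same order.

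Phf3 (chr1:30802342-30873922), a paralog of Dido1 that binds RNA polymerase II, was also among the higher genes, with 1, 2, 7 and 8 kept peaks. Its promoter peak was kept in all 4 libraries, and 12 of the 15 Dido1∆E16 peaks were multi-copy, with a median of 5753 copies. With single-copy peaks alone the mean difference was 0, and in the complete MACS2 lists Phf3 had 2, 14, 7 and 10 peaks. Dido1 itself (chr2:180657963-180710068) held 3, 4, 2 and 3 kept peaks, 2 of them at promoters in every library, and the genotypes overlapped by peak count. Their summed width was 1164, 3579, 864 and 971 bp, lower in both Dido1∆E16 libraries in bp and as a share of the library. A count of peaks per gene does not test the deletion of exon 16.

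Ezh2 (chr6:47530274-47595270), the methyltransferase of Polycomb repressive complex 2 (PRC2), which places the silencing mark on lysine 27 of histone H3, held 3, 2, 10 and 9 kept peaks. Its promoter peak was kept in every library. A peak 41.5 kb upstream of the start was kept in both WT libraries and in Dido1∆E16 replicate 1. All further kept peaks lay 59.8 to 90.1 kb upstream, or just beside that stretch, where the printed sequence stands in 8 copies that were 4308 to 4340 bp apart. RefSeq annotates the small RNA gene Rn4.5s at chr6:47654921-47655094 on the minus strand, sharing 68 bases with the first copy. Copies under a kept peak numbered 1, 0, 8 and 5, and copies under any MACS2 peak numbered 7, 8, 8 and 6. HOMER called no peak on a copy in any library.

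The copies were thus called in every library by MACS2, and the genotypes differed in whether the copies passed the score limit. With all MACS2 peaks Ezh2 had 9, 13, 10 and 11, with HOMER 3, 5, 3 and 4, and with single-copy peaks the mean difference was -0.5. The direction for Ezh2 was thus lost with all MACS2 peaks, with HOMER and with single-copy peaks.

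**Figure D4:**
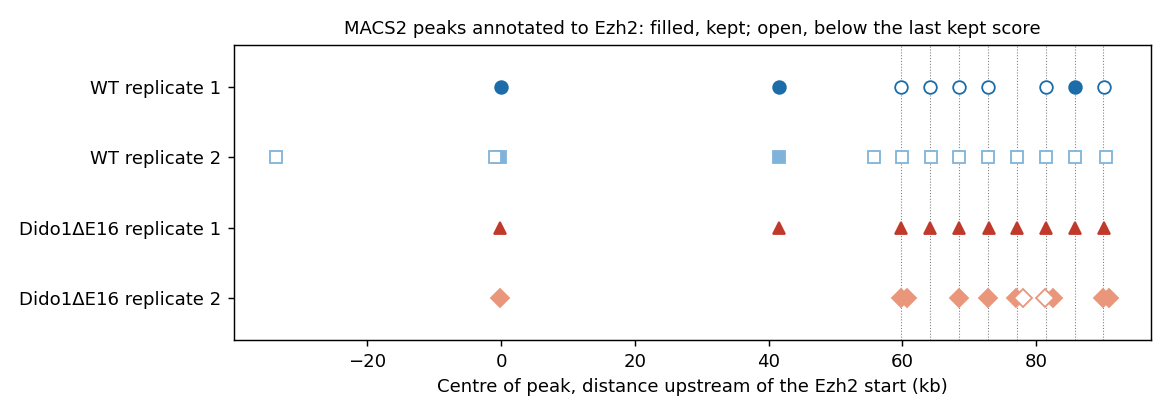
MACS2 peaks assigned to Ezh2 in each library (rows), by the distance of their centre upstream of the Ezh2 start in kb (x axis); filled symbols are kept peaks, open symbols peaks under the last kept score, and dotted lines the 8 copies. Over the copies at 59.8 to 90.1 kb the Dido1∆E16 symbols are mostly filled (8 and 5 copies kept) and the WT symbols mostly open (1 and 0 copies kept).

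Promoters that differed by genotype also differed in base composition. In windows from 250 bases before to 50 after the annotated start, the 441 genes with more promoter peaks in Dido1∆E16 had a median GC content of 65.0% and a median CpG ratio of 0.85. The 167 genes with fewer promoter peaks had 55.3% and 0.52, and all 9153 genes with a promoter peak had 62.0% and 0.80. A CpG ratio under 0.5 was found for 7.26% of the first group, 47.9% of the other and 12.1% of all. Promoters with more peaks in Dido1∆E16 were thus mostly CpG-rich, and those with fewer were often CpG-poor, as in the Il7r stretch. The Rela stretch, with 0.58 over its shorter length, lay nearer to the median of the CpG-poorer group. The motif CCAAT, bound by NF-Y and searched on both strands, was in 30.8% of the first group, 37.7% of the other and 41.8% of all, and in 37.9% of all 27025 RefSeq promoters of this length.

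Genes were then grouped by function in 31 lists, beside 6 lists of cell type markers. Over the genes of each list with a peak, the median difference between genotypes was between -0.75 and 0.5 peaks, except for the pair Dido1 and Phf3, and the median over all genes was 0. The summed peaks of 12 lists were higher in both Dido1∆E16 libraries than in either WT library, and those of 4 lists were lower. With all MACS2 peaks 36 of the 37 lists were lower and none higher, and with HOMER 11 were lower and none higher. The higher sums are therefore shares of the best peaks, like the higher genes. The plot of summed peaks by gene list also shows Dido1∆E16 replicate 1 apart from the other 3 libraries in several lists.

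**Figure D5:**
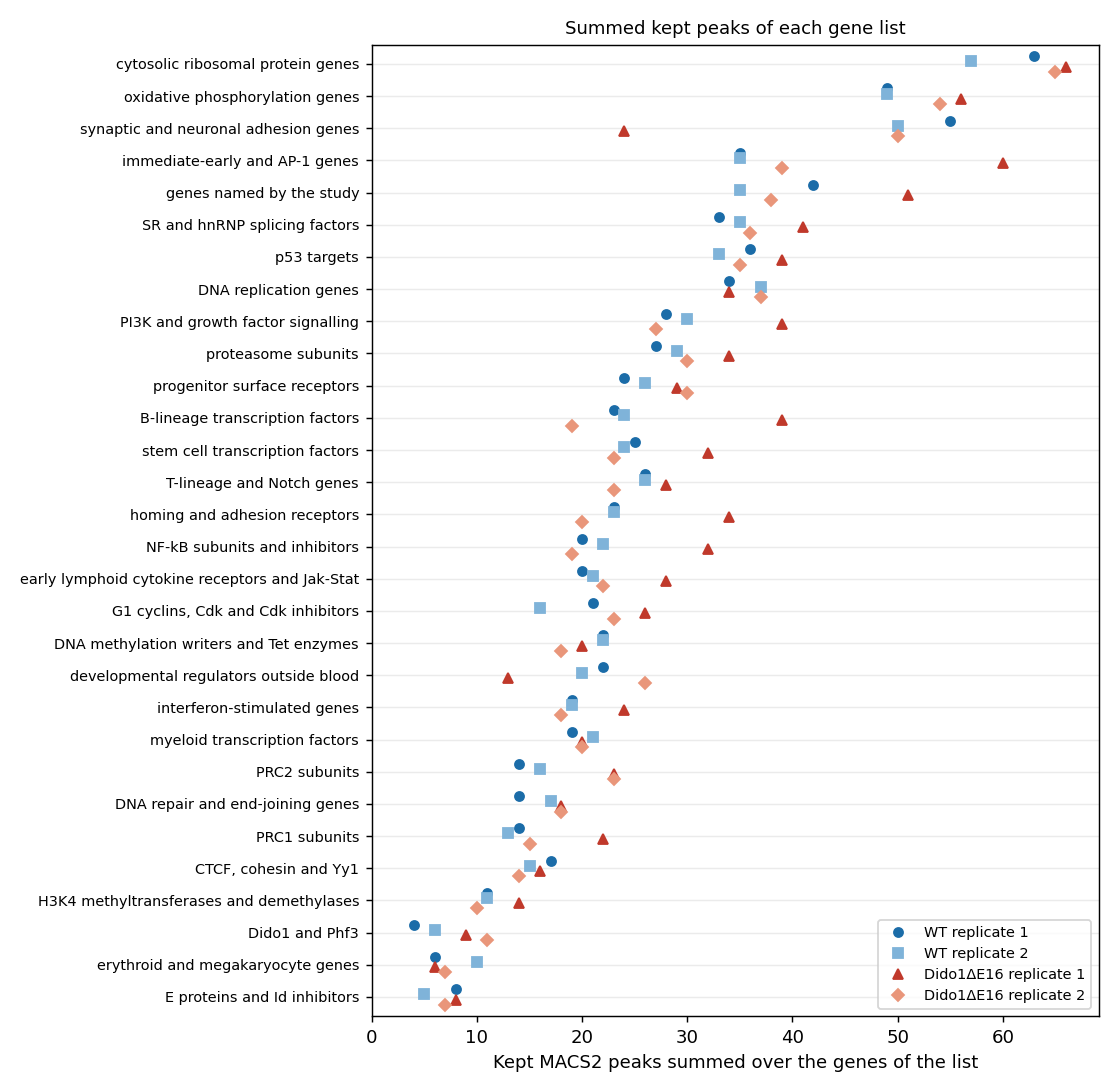
Kept MACS2 peaks summed over the genes of a list (x axis, peaks) for 30 gene lists (y axis), 1 symbol per library. The PRC2 subunits stand at 14 and 16 in WT (circle, square) and 23 and 23 in Dido1∆E16 (triangle, diamond), while the immediate-early genes reach 60 in Dido1∆E16 replicate 1 and 35 to 39 in the others.

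Among the housekeeping lists, a few genes had higher kept counts in both Dido1∆E16 libraries, and the further peak of Psma3 lay outside its promoter. Of the 65 cytosolic ribosomal protein genes with a peak (77 in the list), 3 were higher and none lower, namely Rpl10a, Rpl35a and Rps15, each with 0, 0, 1 and 1. Of these 3, Rpl35a had no WT peak in the complete list of either caller. Promoter peaks of the list numbered 47, 45, 60 and 53. Of 31 proteasome genes with a peak, the higher ones were Psma3 (1, 1, 2 and 2), Psmc1 and Psmc5 (both 0, 0, 1 and 1), which encode a core subunit and ATPases of the cap. Of 58 oxidative phosphorylation genes, Cox6a1, a subunit of cytochrome c oxidase, was higher with 0, 0, 1 and 2. The shares of higher genes were 4.62%, 9.68% and 1.72%, on both sides of the 6.57% of all genes.

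DNA replication and repair showed the same small steps. The polymerase genes Pole, Pole2 and Pola2 and the licensing factor gene Cdt1 each held 0, 0, 1 and 1 and were the 4 higher genes of 38 with a peak, while Mcm5, a subunit of the replicative helicase, was lower with 2, 2, 1 and 1. The summed peaks of the replication list were 34, 37, 34 and 37 and overlapped. In DNA repair 3 of 19 genes were higher (15.8%, and 10.5% of the replication genes, beside 6.57% of all genes), which were Xrcc6, the Ku70 subunit of end joining, with 0, 0, 2 and 1, and Parp1 and Rnf168, which act early at DNA breaks, with 0, 0, 1 and 1. Splicing factors had 2 higher genes, Hnrnpf with 3, 3, 5 and 4 and Srsf9 with 0, 0, 1 and 1, and 1 lower gene, Hnrnpa3, with 4, 4, 3 and 2, of 30. The higher share of 6.67% was near the 6.57% of all genes, and the lower share of 3.33% was under the 7.16% of all genes.

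The Polycomb complexes keep developmental genes silent. Of the 10 PRC2 genes with a peak, Ezh2 and Jarid2 were higher and none was lower, beside 6.57% and 7.16% of all genes, and the list held 14, 16, 23 and 23 peaks. Jarid2, which guides PRC2 to its sites, held 1, 1, 3 and 3, with 1 promoter peak in each Dido1∆E16 library and none in WT. Its complete MACS2 counts were 4, 5, 3 and 3. As most of the excess of Ezh2 lay on or beside the repeated copies, the sum of the PRC2 list rests in large part on these. Of the 16 PRC1 genes with a peak, Kdm2b, which recruits PRC1 to CpG islands, was higher with 0, 0, 2 and 1, and Bcor, a corepressor in the same complex, with 1, 1, 3 and 2. They were 12.5% of the list, beside 6.57% of all genes. In the complete MACS2 lists Kdm2b had 2, 7, 2 and 2 peaks and Bcor 4, 17, 3 and 2, so neither was higher there.

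The targets that such complexes are known to silence were mostly without kept peaks. Of 39 Hox genes, 2 had a kept peak in any library, and the list held 1, 0, 1 and 0. With all MACS2 peaks it held 4, 10, 1 and 1. Of 74 developmental regulators outside blood, 20 had a kept peak, while the complete MACS2 lists held 55, 185, 13 and 37 peaks for the 74. The neural, limb and skeletal factors Irx3 (2, 2, 0 and 1), Neurod1 (1, 1, 0 and 0) and Pax9 (2, 1, 0 and 0) were lower, and 2 genes were higher, beside 7.16% and 6.57% of all genes, among them Tfap2b (0, 0, 2 and 3), a regulator of the neural crest. Their list summed to 22, 20, 13 and 26, so the Dido1∆E16 libraries stood on both sides of WT. With single-copy peaks, which were fewer in the Dido1∆E16 libraries, the sum was lower in both of them. Of 15 genes that write or erase methylation at lysine 4 of histone H3, 1 was higher, Ash1l, with 0, 0, 1 and 1, near the 6.57% of all genes.

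Synaptic and neuronal adhesion genes, which are long and mostly silent in blood, had 4 lower (16%) and 3 higher (12%) genes among 25 with a peak, beside 7.16% and 6.57% of all genes. Dlg2, a scaffold of synapses, held 5, 6, 1 and 2, Robo1, a guidance receptor, held 4, 2, 1 and 1, Grin2b, an NMDA receptor subunit, held 3, 1, 0 and 0, and Ptprd, an adhesion phosphatase, held 1, 1, 0 and 0. Among the higher genes, Nlgn1, a synaptic adhesion molecule, held 1, 1, 2 and 2 and Gria1, an AMPA receptor subunit, held 0, 0, 1 and 1. With single-copy peaks Nlgn1 turned to a mean difference of -0.5, and both Gria1 peaks were multi-copy, with a median of 6055 copies. The list summed to 55, 50, 24 and 50, with Dido1∆E16 replicate 1 apart. Its sum was lower in both Dido1∆E16 libraries with single-copy peaks, with all MACS2 peaks and with HOMER. In each of these settings the Dido1∆E16 libraries also had fewer peaks in all.

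Early response genes encode factors such as AP-1 that are induced within minutes by growth factors or by stress, cell handling included. Of 26 with a peak, 4 were higher (15.4%, beside 6.57% of all genes) and none lower, namely the AP-1 genes Fosb (0, 0, 4 and 1) and Jund (0, 0, 1 and 1), Dusp1, a phosphatase of MAP kinases (0, 0, 2 and 1), and Ier5 (3, 3, 8 and 4). The list summed to 35, 35, 60 and 39. In Fosb and Ier5 the second Dido1∆E16 library differed from WT by 1 peak only.

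Receptor and signalling genes were called in both directions. In the list of early lymphoid cytokine receptors and Jak-Stat genes, Il7r was lower and 3 of 20 genes were higher, beside 7.16% and 6.57% of all genes, among them Jak2 (0, 0, 3 and 1), the kinase of the thrombopoietin and erythropoietin receptors, and Stat5b (0, 0, 1 and 1), which acts downstream of interleukin 7. Cxcr4, the chemokine receptor that holds stem cells in the marrow, held 3, 2, 7 and 5 kept peaks but 11, 21, 7 and 8 in the complete lists, and Esam, an adhesion molecule of stem cells, held 0, 0, 1 and 1. Of the homing receptors, S1pr1, which guides cells out of tissues, was lower with 6, 6, 5 and 2, and Itgb7, an integrin of gut homing, was higher with 0, 0, 1 and 1. Of 18 stem cell transcription factors with a peak, 1 was higher, Myb, with 0, 0, 3 and 1. Of 14 B-lineage transcription factors with a peak, 1 was lower, Lef1, and the list summed to 23, 24, 39 and 19, with Dido1∆E16 libraries on both sides of WT.

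Of 13 NF-kB genes with a peak, the subunit gene Rela was higher, as printed, and Ikbkb, a kinase that activates NF-kB, was lower with 2, 2, 1 and 0. Each was 7.69% of the list, near the 6.57% higher and 7.16% lower of all genes. The complete lists held 0, 2, 1 and 2 MACS2 peaks and 1, 2, 0 and 2 HOMER peaks for Rela, so that peaks at Rela were called in WT outside the kept lists as well, and HOMER called none in Dido1∆E16 replicate 1. Of 22 PI3K signalling genes with a peak, 2 were lower, among them Insr (4, 3, 2 and 2), the insulin receptor, and 1 was higher, near the 7.16% and 6.57% of all genes.

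Of 11 DNA methylation genes with a peak, 1 was lower, Mbd2, a reader of methylated CpG, with 7, 6, 3 and 4. The methyltransferase gene Dnmt3a was higher, with 3, 3, 4 and 4. Each was 9.09% of the list, beside 7.16% lower and 6.57% higher of all genes. The DNA methylation list was the only one outside the markers with a lower sum in both Dido1∆E16 libraries (22, 22, 20 and 18). Of 13 CTCF, cohesin and Yy1 genes with a peak, the cohesin regulator Pds5b was lower with 2, 2, 1 and 1 (7.69%). Of 27 p53 targets with a peak, Eda2r and Xpc were lower with the same counts (7.41%). Of 21 interferon-stimulated genes with a peak, Rsad2, an antiviral enzyme, was lower with 2, 2, 1 and 1, and 2 were higher, among them Irf1, a transcription factor, with 0, 0, 1 and 1. No member was called among the 20 genes of G1 cyclins and their kinases and inhibitors, the 15 myeloid transcription factors or the 6 E proteins and Id inhibitors, beside 7.16% lower and 6.57% higher of all genes. The G1 list summed to 21, 16, 26 and 23, higher in both Dido1∆E16 libraries.

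By summed width per gene the split of several lists depended on the scale. In bp, where 33.3% of all genes were lower and 6.78% higher, 24 of the 65 ribosomal protein genes with a peak were lower and 3 higher, near those shares, and 22 and 6 of the 38 replication genes. As a share of each library's summed width these became 9 lower and 11 higher, and 7 and 11. The splicing factors, with 7 lower and 1 higher in bp, had 2 lower and 12 higher of 30 on the share scale, beside 17.9% and 15.5% of all genes. The synaptic genes were lower more often than higher on both scales, at 11 against 2 in bp and 8 against 3 as a share, of 25. Their summed width was 21.4, 28.6, 8.27 and 18.4 kb. The myeloid transcription factors, of which none was called by peak count, had 6 lower and 0 higher genes of 15 in bp and 3 and 0 as a share, with 10.3, 14.1, 7.41 and 7.23 kb in all. The shares of lower myeloid factors were near those of all genes on both scales.

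Of the 20 genes that the study names for its accessibility results, 2 were lower (10%), among them Il7r, and Ezh2 was higher (5%), near the 7.16% and 6.57% of all genes, and the list summed to 42, 35, 51 and 38. Runx1, a master regulator of blood stem cells, held 2, 1, 1 and 1 kept peaks and Ebf1, the specifier of B cells, held 2, 1, 2 and 3. Tcf3, which encodes the E proteins E12 and E47, held 1 in every library, and its partner Tcf12 held 1, 0, 0 and 0. Tcf4, the remaining E protein gene, held 3, 2, 6 and 3, Cdk6, a G1 kinase of progenitors, held 4, 4, 4 and 6, and Etv6, an ETS factor, held 5, 5, 8 and 3. In each of these genes the genotypes overlapped or touched by peak count, while the deposited tag counts were lower in both Dido1∆E16 libraries at regions of Cdk6 (7.70, 7.52, 6.44 and 6.49) and Ebf1 (5.69, 5.81, 4.62 and 5.15), like those of nearly all regions in these lists. By summed width in bp 7 of the 20 genes were lower and 1 was higher, near the 33.3% and 6.78% of all genes. As a share of the library 3 were lower and 2 higher, beside 17.9% and 15.5% of all genes. Tcf3 was lower on both scales (519, 817, 322 and 210 bp), and Cdk6 was lower in bp (2394, 2434, 1851 and 2300 bp). Ebf1 was higher as a share of the library but not in bp (688, 370, 635 and 1149 bp). Bmi1, a PRC1 subunit required by stem cells, held 0, 0, 1 and 0, and Ikzf2, an Ikaros family factor, held 4, 1, 2 and 2.

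Markers were read to check the gate and the presence of other cells. Of 12 LSK markers, 8 had a kept peak, summing to 16, 19, 16 and 19. Kit, the receptor by which LSK cells are sorted, held 1, 3, 4 and 3, Cd34 held 4, 4, 2 and 4, Flt3 held 2, 3, 3 and 2 and Meis1 held 3, 5, 3 and 6. Ly6a, which encodes the Sca1 antigen of the gate, and Procr, Gata2 and Erg had no kept peak in any library. The markers of B cells summed to 1, 1, 3 and 1 over 2 of 9 genes, and those of T and NK cells to 2, 6, 5 and 3 over 4 of 10, with Cd3e at 0.

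Markers of erythroid cells summed to 2, 5, 1 and 1, those of neutrophils and monocytes to 5, 5, 1 and 4, and those of stroma and endothelium to 6, 6, 4 and 5. Each of these sums was lower in both Dido1∆E16 libraries. The lower members were Epor, the erythropoietin receptor, and Itgam, an integrin of myeloid cells (both 1, 1, 0 and 0), and Adgre1, the macrophage marker F4/80 (2, 2, 0 and 1). They were 1 of 4 erythroid and 2 of 5 neutrophil and monocyte genes with a peak, beside 7.16% of all genes. None of the 5 stroma and endothelium genes with a peak was called. The lineage gate that the study gives for LSK cells removes cells with erythroid or myeloid antigens, the product of Itgam among them. Its RT-qPCR sort also removes cells with F4/80. The part of other cell types in the differences between genotypes was not tested.

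A model across genes was fitted to the summed widths, as log2(width + 200 bp), for the 6981 genes with a mean of at least 1 peak per library. With limma's moderated test and Benjamini-Hochberg adjustment, 0% of the genes were called lower and 0% higher at an adjusted p under 0.05, and the smallest adjusted p was 0.310. At an unadjusted p under 0.05 there were 809 lower and 94 higher genes, around a median difference of -0.39 over all genes. With widths as a share of the library the median was -0.05 and the numbers were 391 and 214. The smallest p-values among higher genes belonged to Brinp3 (0, 0, 8 and 10 peaks, adjusted p = 0.310), to Dux, a factor of early embryos that lies in a repeated array (0, 0, 3 and 5), and to Gm17019 (0, 0, 5 and 7). Among lower genes they belonged to Adcyap1, a neuropeptide gene (4, 4, 1 and 1 peaks, log2 difference -2.08), to Capsl (3, 3, 0 and 0) and to Tlr3, a receptor for double-stranded RNA (3, 2, 1 and 1, log2 difference -1.79), each with an adjusted p of 0.347. Brinp3, Dux, Gm17019 and Capsl had 0 bp in both libraries of a genotype and passed the filter through the other genotype alone, and the size of their fitted difference depends on the 200 bp added, so it is not given. Pde4d, with the largest difference in peaks among lower genes, had 3730, 7329, 0 and 2335 bp and an adjusted p of 0.385, and with Dido1∆E16 replicate 1 at 0 bp its fitted difference depends on the added 200 bp as well.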

How the data were processed

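The authors aligned the ATAC-seq reads to GRCm38/mm10 with Bowtie2 and BWA-MEM 0.7.15, removed duplicates with Picard and blacklisted regions, called peaks in each library with MACS2 and HOMER, and annotated them with ChIPseeker to the nearest start site. The deposited peak lists gave each MACS2 peak a score and a width in bp, and HOMER peaks carried no usable score. The differential regions that the authors made with edgeR and DESeq2 came with deposited log2 tag counts, used here as a description only, and their fold changes and p-values were not used. No column of per-sample values was left out for want of a sample.

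The members, gene lists and tests were chosen with earlier results of these data known. For each library the 13208 best peaks by score were kept, then counted and their widths summed per gene symbol. A gene was called when the 2 libraries of one genotype did not overlap those of the other. Library totals were compared by an exact two-sided permutation test over the 4 libraries. Summed widths were tested as log2(width + 200 bp) with limma 3.58.1 in R 4.3.3 (moderated test with trend, Benjamini-Hochberg adjustment, 0.05), for genes with a mean of at least 1 peak per library. On simulated data with 200 changed of 6981 genes, limma recovered 0% at a log2 change of 1 or 2 and 67% at 4, with 5 unchanged genes called, so that 2 libraries per genotype allow calls of very large differences only. Copies of the central 31 bases of each peak were counted on both strands of GRCm38.p6, and promoter windows were read at the annotated start of each gene. The remaining steps used scipy 1.17.1, numpy 2.4.6 and pandas 2.3.3 in Python 3.11.15, and plots were drawn with matplotlib 3.10.9.

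Genes were named by rule: Dido1 and the genes the study names for its accessibility results, the 8 largest differences in peaks in each direction among called genes, the 5 genes with most peaks, up to 3 called members per list and direction, and the 3 smallest limma p-values in each direction. Cdt1, Jund and Ptprd were added after their values were seen, to complete small counts. Some genes that the rule names, and 1 sequence, are not reported here. Same-numbered libraries did not deviate together (r = -0.055 across 6981 genes), so the numbers were not taken as pairs. Library depth and peak number ran in parallel within each genotype but not across genotypes, and the part of depth in the differences was not tested.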

Additional observations from a re-analysis of the deposited data

How the results depend on the processing

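Directions depended first on the rule that keeps an equal number of peaks. Settings were changed 1 at a time, with 2 exceptions. HOMER peaks, having no usable score, change both the caller and the equal number of peaks. Single-copy peaks were taken from the kept peaks without new ranking, so that their number was unequal as well. Genes with fewer peaks in both Dido1∆E16 libraries (922) numbered 438 with the best 50% of the peaks, 608 with peaks within 50 kb of a start site, 167 with promoter peaks only, 6331 with all MACS2 peaks and 3568 with all HOMER peaks, the complete lists being longer in WT. Genes with more peaks (847) numbered 376 with the best 50%, 441 with promoter peaks only, 34 with all MACS2 peaks and 41 with HOMER. Summed width gave 2501 lower and 445 higher genes with the best 50%, 9841 and 70 with all MACS2 peaks, 6661 and 138 with HOMER, 2303 and 1991 as a share of the library, and 529 higher with promoter peaks only. Promoter peaks gave 1436 lower and 22 higher genes with all MACS2 peaks, 734 and 38 with HOMER and 238 higher with the best 50%. Peaks outside promoters gave 305 lower and 152 higher with the best 50%, 5429 and 38 with all MACS2 peaks and 3204 and 32 with HOMER. Genes with a peak turned from more to fewer in Dido1∆E16, by -5345 with all MACS2 peaks and -3664 with HOMER. The difference in median width, -191 bp, became -24.5 bp with HOMER and -5 bp with all MACS2 peaks. With all MACS2 peaks the genotypes overlapped in median width (385, 426, 411 and 390 bp). The difference in promoter share, 6.19 percentage points, became 10.7 with single-copy peaks, 24.1 with all MACS2 peaks and 17.9 with HOMER. Lists with lower sums numbered 2 with the best 50%, 36 with all MACS2 peaks and 11 with HOMER, and lists with higher sums 4, 0 and 0. Beyond the unequal list lengths the cause was not tested.

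The limma calls, 0 lower and 0 higher, became 1 and 1 with HOMER peaks, 2 and 1 with promoter peaks only, and 180 and 121 on log2(peak count + 1), where many genes had equal counts in the libraries of a genotype. With the replicate number as a block they stayed at 0 and 0 (smallest adjusted p 0.292, with 897 lower and 94 higher genes at an unadjusted p under 0.05).

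Leaving out 1 library makes non-overlap easier by construction, and the libraries of the genotype with 1 left were assumed to vary like the other genotype. Lower genes by peaks then ranged from 1551 to 2053 and higher ones from 1445 to 2335, by width from 5280 to 8092 and from 1372 to 2324, and by limma from 0 to 1 and from 0 to 59, with 59 higher genes without Dido1∆E16 replicate 2. The difference in genes with a peak ranged from 162.5 to 459.5, in genes with at least 2 peaks from -215.5 to -202.5, in summed width from -3.93 to -0.736 Mb, in median width from -310 to -72.0 bp and in promoter share from 3.07 to 9.31 percentage points. Lists with lower sums ranged from 6 to 13 and with higher sums from 13 to 23.

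Among named genes that were called lower or higher, differences in mean peaks (Dido1∆E16 minus WT) turned sign as follows. With all HOMER peaks they were -12 for Bcor, -7.5 for Maml3, -7 for Ier5, -6 for Cxcr4, -4.5 for Brinp3, -3.5 for Nlgn1, -3 for Phf3, -2.5 for Gm21119 and Speer4cos, -2 for Fosb, Myb, Parp1 and Psmc1, -1.5 for Jak2, Kdm2b, Mir101c and Tfap2b, -1 for Cntnap5a, Gria1, Itgb7, Jarid2, Stat5b and Xrcc6, and -0.5 for Dusp1, Erdr1, Esam, Ezh2, Hnrnpf, Irf1, Pisd-ps2, Pole2, Rela and Srsf9. With all MACS2 peaks they were -8.5 for Cxcr4, -8 for Bcor, -6.5 for Maml3, -5 for Dnmt3a, -4 for Nlgn1, -3.5 for Fosb, -2.5 for Ier5, Kdm2b, Myb and Parp1, -2 for Erdr1, Jak2 and Tfap2b, -1.5 for Jarid2, -1 for Esam, Hnrnpf, Itgb7, Olfr161 and Stat5b, and -0.5 for Ash1l, Ezh2, Mir101c, Pisd-ps2, Pole2, Psma3, Psmc1 and Xrcc6. The best 50% gave -0.5 for Dnmt3a and 1 for Apbb1ip, peaks within 50 kb gave -0.5 for Ezh2 and Olfr161, promoter peaks only gave 0.5 for S1pr1 and Thrb, and single-copy peaks gave -0.5 for Ezh2 and Nlgn1. Tcf4, whose kept counts were not called, had 7, 20, 6 and 4 MACS2 and 7, 25, 7 and 5 HOMER peaks in the complete lists.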
